A study of Mus musculus with 8 samples.

Results

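The T-box transcription factors that mark regions of the embryonic mouse heart were examined in RNA-seq of ventricles with endothelial deletion of *Nrg1*. The set held 6 genes, *Tbx1*, *Tbx2*, *Tbx3*, *Tbx5*, *Tbx18* and *Tbx20*, taken by gene symbol from a table of 53465 genes. They were grouped by the region each is known for, namely the chambers (*Tbx5*, *Tbx20*), the atrioventricular canal and conduction system (*Tbx2*, *Tbx3*), the outflow tract (*Tbx1*) and the sinus venosus and epicardium (*Tbx18*). Polyadenylated RNA of heart ventricles at embryonic day (E) 9.5 was sequenced from 4 mutant samples, labelled *Nrg-1flox;Tie2-Cre*, and 4 wild-type (WT) samples. In the mutants a floxed *Nrg1* allele was combined with *Tie2-Cre*, whose promoter is active in endothelial cells, including the endocardium, and which is also known to recombine in blood lineages. Whether the WT embryos carried Cre or a floxed allele, whether the mutant alleles were homozygous, and how many embryos made up a sample were not given in the sources used here. P-values therefore measure the spread between these samples, which may be technical.

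T-box factors bind DNA through a shared domain that recognizes a short sequence, called here the T-box element, and several of them compete for the same genes. In the heart, Tbx5 and Tbx20 act with Nkx2-5 and Gata4 on the chamber programme, in which natriuretic peptide, gap junction and contractile genes are switched on. Tbx2 and Tbx3 repress that programme in the atrioventricular canal, and Tbx3 also marks the precursors of the conduction system. Tbx1 acts in the pharyngeal mesoderm and second heart field that build the outflow tract, and Tbx18 in the sinus horns and in the proepicardium, the cell cluster that spreads over the heart as epicardium. *Nrg1* encodes neuregulin-1, a ligand that the endocardium presents to ErbB receptors on the myocardium and that trabeculation needs.

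Total counts ranged from 12430368 to 14223860 in the mutant samples and from 11852372 to 14360323 in WT. *Nrg1* was at 61, 59, 71 and 72 counts in mutant samples 1 to 4 and at 156, 131, 121 and 173 counts in WT samples 1 to 4, so the groups did not overlap (log2 fold change -1.07, SE 0.14, adjusted p = 0.00268 by edgeR's quasi-likelihood test). Markers of other cells were examined first, because a change in tissue make-up touches every level below. In bulk RNA, fewer cells of a type and less RNA per cell cannot be told apart. Summed levels of 12 cardiomyocyte genes, in counts scaled to library size (CPM), were 37330 to 39970 in the mutants and 39420 to 41380 in WT, and those of 12 endocardial and endothelial genes were 894 to 970 and 1015 to 1097. None of the 12 cardiomyocyte genes passed edgeR's quasi-likelihood test, which is near the 8.62% over all genes. Unadjusted p was under 0.05 for 2 of them, and DESeq2 called 2. In the endothelial list 2 of 12 passed, where *Tek* fell (log2 fold change -0.34, adjusted p = 0.031) and *Sox17* rose (1.03, adjusted p = 0.00743, edgeR). Without mutant sample 1, 2 cardiomyocyte genes (1 higher, 1 lower) and 4 endothelial genes (1 higher, 3 lower) passed, where 17.2% of all genes did. Hemoglobin genes took 6.26, 1.93, 3.80 and 3.89% of counts in mutant samples 1 to 4, against 0.671 to 0.799% in WT. All 12 erythroid genes listed passed as higher in the mutants, against 5.11% of all genes. Mutant sample 1 also stood farthest from its group, with chi-square per degree of freedom of 30.7 to 52.7 against the other mutants, where WT pairs gave 3.77 to 6.14. Mutant sample 2 gave 14 and 14.5 against mutant samples 3 and 4, which gave 4.67 with each other. The part of blood and of mutant samples 1 and 2 in the results was not tested. Each tested T-box gene and each list of a heart region is given with and without mutant sample 1.

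Among the T-box genes, levels were compared per length, as CPM per kilobase of merged exons. In WT ventricles *Tbx20* was the highest at 31.5 ± 0.70 CPM per kilobase (SD, n = 4), followed by *Tbx5* at 19.1 ± 1.14, *Tbx2* at 12.2 ± 0.984, *Tbx18* at 9.03 ± 0.755 and *Tbx3* at 5.60 ± 0.46. *Tbx1* was the lowest at 0.156 ± 0.117 CPM per kilobase. No neighbours in this order overlapped between their WT samples, and *Tbx2* (11.2 to 13.2) stood just above *Tbx18*. Both chamber factors thus stood above both canal factors in tissue labelled as ventricle. In the mutants the order of *Tbx2* and *Tbx18* was exchanged, with *Tbx18* at 12.8 ± 2.29 and *Tbx2* at 9.54 ± 2.87 CPM per kilobase. The mutant ranges of *Tbx18* (10.7 to 15.8) overlapped those of both *Tbx2* (5.68 to 12.6) and *Tbx5* (13.8 to 18.4), although within each mutant sample *Tbx18* was below *Tbx5*. The ratio of *Tbx18* to *Tbx2* per kilobase, examined after the data were seen, was 2.31, 1.53, 0.850 and 1.20 in mutant samples 1 to 4 and 0.867, 0.812, 0.638 and 0.673 in WT samples 1 to 4. Mutant sample 3 lay within the WT range.

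**Figure D1:**
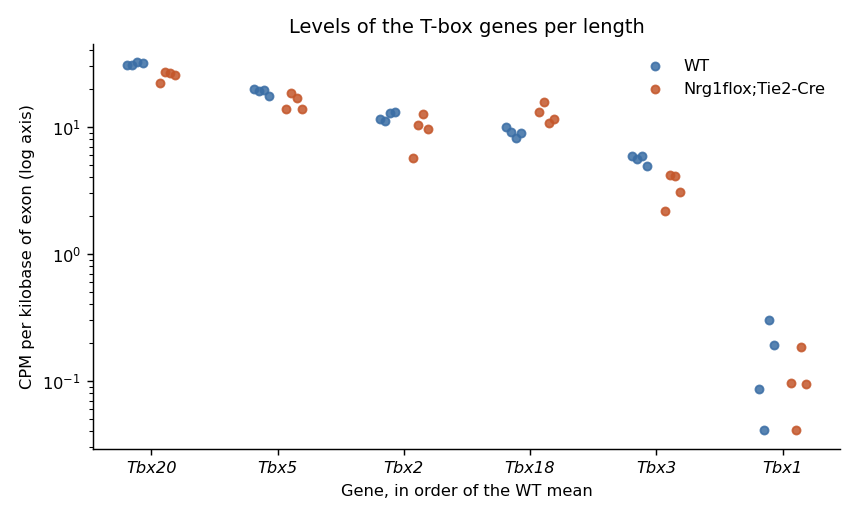
Level of each T-box gene per kilobase of exon (TMM-normalized CPM per kilobase, log axis) in 4 WT (blue) and 4 mutant (orange) ventricle samples, genes in order of their WT mean. Each point is a sample. *Tbx20* was the highest and *Tbx1* the lowest in both genotypes, and *Tbx18* lay below *Tbx2* in WT.

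Across the transcriptome, 14451 genes passed the filter on low counts, and 1245 of them (8.62%) passed a false discovery rate of 0.05 between the genotypes. Of these, 739 (5.11%) were higher and 506 (3.5%) lower in the mutants, while scaling to the cardiomyocyte genes gave 828 higher and 351 lower. Of the 6 T-box genes, 5 were tested. *Tbx3* and *Tbx20* fell, *Tbx18* rose, *Tbx2* and *Tbx5* did not pass, and *Tbx1* was under the filter. CPM did not overlap between the genotypes for *Tbx3*, *Tbx18* and *Tbx20*, as for 19.0% of all genes tested. Without mutant sample 1 the same 3 of these genes passed, where 2523 of 14630 genes (17.2%) passed in all.

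**Figure D2:**
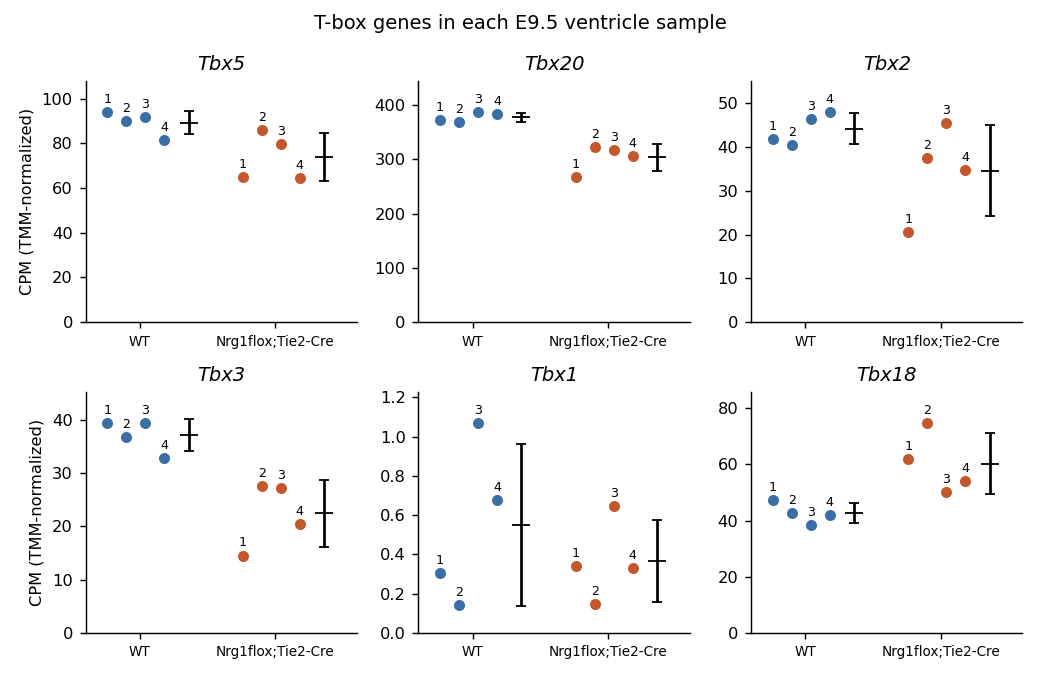
TMM-normalized CPM of each T-box gene in 4 WT (blue) and 4 mutant (orange) E9.5 ventricle samples. Numbers are replicate numbers and bars give the mean and SD. Mutant samples lay wholly below WT for *Tbx20* and *Tbx3* and wholly above WT for *Tbx18*, and the genotypes overlapped for *Tbx5*, *Tbx2* and *Tbx1*.

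*Tbx20*, which maintains proliferation and chamber identity in the myocardium, was the most abundant of the set and showed the smallest spread. The gene (ENSMUSG00000031965) lies on the minus strand of GRCm38 at chr9:24718138-24774303. WT samples 1 to 4 had 372, 370, 387 and 384 CPM, and mutant samples 1 to 4 had 268, 324, 318 and 307 CPM. Every mutant sample lay below every WT sample, and mutant sample 1 was the lowest. The mean was 304 ± 25.0 CPM in the mutants and 378 ± 8.39 in WT (SD, n = 4), and *Tbx20* fell by 19.5% (log2 fold change -0.31, SE 0.0638, adjusted p = 0.0165, edgeR quasi-likelihood test). The two-sided exact permutation test gave p = 0.0286, the smallest that 4 against 4 samples allow. Leaving out mutant sample 1 gave a difference of -0.26 on the log2 scale (SE 0.0392, adjusted p = 0.00223 by edgeR). Leaving out WT sample 1, 3 or 4 took the call away (adjusted p from 0.0546 to 0.059, edgeR), in fits where 509 to 592 genes passed in all, against 1245 with every sample.

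*Tbx5*, the dose-sensitive chamber factor altered in Holt-Oram syndrome, is on the plus strand at chr5:119832668-119885219 (ENSMUSG00000018263). It was at 93.8, 89.9, 91.8 and 81.7 CPM in WT samples 1 to 4. In the mutants it was at 64.9, 86.1, 79.6 and 64.5 CPM. Mutant samples 1 and 4 were low, while mutant sample 2 lay above the lowest WT sample, so the groups overlapped. The means were 73.8 ± 10.8 CPM in the mutants and 89.3 ± 5.33 in WT, and the difference of -0.27 on the log2 scale (SE 0.10) did not pass (adjusted p = 0.125, edgeR). The two-sided exact permutation test gave p = 0.0571. The difference was -0.22 (SE 0.0901, adjusted p = 0.131 by edgeR) when mutant sample 1 was left out. Within each sample, the ratio of *Tbx5* to *Tbx20* per kilobase was 0.540 to 0.682 in the mutants and 0.546 to 0.647 in WT, so the balance of the chamber factors overlapped between genotypes.

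The transcription factors that work with these proteins were listed as 12 partner genes, all of which were tested. Of these, 4 were lower in the mutants, none was higher and 8 did not pass, with a median log2 fold change of -0.41 against -0.0014 over all genes tested. The 4 were *Mef2c*, a MADS-box activator of muscle genes (111 ± 8.24 against 149 ± 9.62 CPM, log2 fold change -0.42, adjusted p = 0.00718), *Hand1*, a basic helix-loop-helix factor of the left ventricle (-0.62, adjusted p = 0.0169), *Hopx* (-0.44, adjusted p = 0.0404) and *Gata5* (-0.58, adjusted p = 0.0491, edgeR). *Gata4* and *Nkx2-5*, which bind Tbx5 and Tbx20 directly, had log2 fold changes of -0.07 (adjusted p = 0.63) and 0.08 (adjusted p = 0.75). When mutant sample 1 was left out, 5 partners were lower and 2 higher, in a fit where 17.2% of all genes passed against 8.62% with it. The 2 were *Nkx2-5* (log2 fold change 0.22, adjusted p = 0.0149) and *Srf* (0.22, adjusted p = 0.0147, edgeR), so the value of *Nkx2-5* depends on that sample.

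The chamber programme, which Tbx5 and Tbx20 promote and Tbx2 and Tbx3 repress, was described from a list of 16 genes. Whether these factors regulate each listed gene was not tested. Of the 16 genes, 3 fell, 2 rose and 11 did not pass, where 8.62% of all genes passed, and the median log2 fold change was -0.02. *Irx3*, a homeobox gene of the trabeculae and ventricular conduction system, fell most (8.99 ± 3.03 against 24.3 ± 2.14 CPM, log2 fold change -1.43, adjusted p = 0.00471). *Bmp10*, the trabecular growth factor, fell from 112 ± 12.1 to 75.3 ± 11.7 CPM (-0.57, adjusted p = 0.0159), and *Cited1* also fell (-0.46, adjusted p = 0.0453). *Nppb*, which encodes B-type natriuretic peptide, moved the other way. It was at 319, 219, 165 and 160 CPM in mutant samples 1 to 4 and at 115, 111, 129 and 94.8 CPM in WT, a log2 difference of 0.94 (SE 0.205, adjusted p = 0.0218, edgeR). Mutant sample 1 was the highest, and all mutants lay above all WT samples. The co-activator gene *Cited2* rose by 0.37 on the log2 scale (adjusted p = 0.0423). *Nppa*, atrial natriuretic peptide and the best-known target of Tbx5, was at 1275, 970, 1041 and 1066 CPM in the mutants and at 995, 1116, 896 and 853 CPM in WT. These ranges overlapped, and its log2 fold change of 0.17 did not pass (adjusted p = 0.329, edgeR) and was 0.09 without mutant sample 1. Of the 16 genes, 3 were higher and 3 lower when mutant sample 1 was left out, where 17.2% of all genes passed.

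Letters of the T-box element were looked for in the 250 bases before the annotated starts of genes, using RefSeq promoter sequences of build GRCm38.p6. The letters AGGTGTGA, or TCACACCT on the other strand, were found in 368 of 32851 windows (1.12%). The core GGTGTG, or CACACC, which is part of those letters, was found in 5347 windows (16.3%). Of the 16 chamber genes, 13 matched the promoter table by symbol with 16 windows, of which *Nppa* held the full letters and *Nppa*, *Nppb*, *Hey2* and *Mycn* held the core (25.0% of windows). The windows of *Nppa* and *Nppb* are shown because these neighbouring genes are chamber targets whose levels are given above. They are followed by those of *Tbx18* and *Tbx20*, the genes of the set that passed the test and were in the promoter table. Each is written 5′ to 3′ on the strand of its gene, with the match in capitals. They cover chr4:148000472-148000721 (*Nppa*, plus strand), chr4:147985650-147985899 (*Nppb*, plus strand), chr9:87731261-87731510 (*Tbx18*, minus strand) and chr9:24774304-24774553 (*Tbx20*, minus strand).
Nppa: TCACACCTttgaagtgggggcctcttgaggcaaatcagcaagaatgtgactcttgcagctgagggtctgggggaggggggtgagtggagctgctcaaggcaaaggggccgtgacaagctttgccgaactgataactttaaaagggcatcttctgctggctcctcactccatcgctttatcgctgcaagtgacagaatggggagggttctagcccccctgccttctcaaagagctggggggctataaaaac
Nppb: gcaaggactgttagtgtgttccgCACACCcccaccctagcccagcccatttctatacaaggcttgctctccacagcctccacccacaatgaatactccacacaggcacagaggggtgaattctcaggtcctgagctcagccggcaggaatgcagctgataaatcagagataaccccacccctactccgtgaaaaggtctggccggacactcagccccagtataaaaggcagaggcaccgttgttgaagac
Tbx18: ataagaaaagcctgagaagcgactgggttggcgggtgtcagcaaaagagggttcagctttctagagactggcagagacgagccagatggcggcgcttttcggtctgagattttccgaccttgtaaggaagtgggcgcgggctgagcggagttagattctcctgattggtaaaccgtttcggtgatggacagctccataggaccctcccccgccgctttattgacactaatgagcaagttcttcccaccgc
Tbx20: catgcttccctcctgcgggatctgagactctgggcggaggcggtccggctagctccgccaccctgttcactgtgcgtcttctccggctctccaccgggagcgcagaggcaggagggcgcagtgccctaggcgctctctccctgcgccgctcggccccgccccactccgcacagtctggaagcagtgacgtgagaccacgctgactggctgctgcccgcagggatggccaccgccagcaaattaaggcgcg
The *Nppa* match began 250 bases before the start, and the *Nppb* core began 227 bases before it, both on the strand opposite to the gene. Neither set of letters was in the windows of *Tbx18* and *Tbx20*. In all, 3 of the 6 T-box genes (*Tbx1*, *Tbx18* and *Tbx20*) matched the promoter table with 4 windows, and 0 windows held either. A match describes letters and is not a measured binding site.

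*Tbx3*, the repressor that marks the atrioventricular canal and the future conduction system, showed the largest fall of the set. It lies on the plus strand at chr5:119670669-119684724 (ENSMUSG00000018604), 147.9 kilobases before *Tbx5*, with 0 protein-coding genes between them. *Tbx3* was at 39.3, 36.8, 39.3 and 32.9 CPM in WT samples 1 to 4 and at 14.5, 27.6, 27.1 and 20.4 CPM in the mutants. No mutant sample reached the lowest WT sample, and mutant samples 1 and 4 were the lowest. The mean was 22.4 ± 6.21 CPM in the mutants and 37.1 ± 3.05 in WT, and *Tbx3* fell by 39.4% (log2 fold change -0.72, SE 0.175, adjusted p = 0.0334, edgeR quasi-likelihood test). The two-sided exact permutation test gave p = 0.0286, the smallest possible. Without mutant sample 1 the log2 fold change was -0.56 (SE 0.106, adjusted p = 0.0065 by edgeR). The call was lost when mutant sample 4 or any 1 WT sample was left out (adjusted p from 0.0668 to 0.101, edgeR). Those fits called 509 to 700 genes in all, against 1245 with every sample.

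*Tbx2*, the other canal repressor, is on the plus strand at chr11:85832551-85841948 (ENSMUSG00000000093). WT samples 1 to 4 had 41.9, 40.5, 46.4 and 47.9 CPM. The mutants had 20.6, 37.6, 45.5 and 34.7 CPM. Mutant sample 1 was far the lowest, mutant sample 3 lay within the WT range, and the groups overlapped. The log2 fold change was -0.35 with SE 0.19 and did not pass (adjusted p = 0.291, edgeR), and the two-sided exact permutation test gave p = 0.114. Without mutant sample 1 the difference moved to -0.17 (SE 0.0944, adjusted p = 0.258 by edgeR), so a single sample set much of its size. The ratio of *Tbx3* to *Tbx2* per kilobase was 0.385, 0.402, 0.326 and 0.321 in mutant samples 1 to 4 and 0.514, 0.498, 0.463 and 0.375 in WT. Only WT sample 4 fell within the mutant range. Against the chamber factor, the ratio of *Tbx2* to *Tbx20* per kilobase overlapped between genotypes (0.254 to 0.474 in the mutants, 0.362 to 0.414 in WT).

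Other genes of the atrioventricular canal were described from a list of 14, all tested. Of these, 6 fell, 0 rose and 8 did not pass, where 8.62% of all genes passed and 3.5% fell. The median log2 fold change was -0.44, against -0.0014 over all genes. *Has2*, which makes the hyaluronan of the cardiac jelly, fell from 44.8 ± 6.78 to 21.4 ± 1.02 CPM (log2 fold change -1.06, adjusted p = 0.00152). *Wnt4* fell from 11.7 ± 0.623 to 5.47 ± 0.912 CPM (-1.10, adjusted p = 0.0021), and *Rspo3*, which strengthens Wnt signalling, fell by 0.88 on the log2 scale (adjusted p = 0.00728). *Cacna2d2*, a calcium channel subunit (-0.47, adjusted p = 0.0236), *Id2*, an inhibitor of helix-loop-helix factors (-0.52, adjusted p = 0.0435), and *Tgfb2*, a growth factor of cushion formation (-0.40, adjusted p = 0.00479), also fell by edgeR's quasi-likelihood test. *Bmp2*, the canal signal known to activate *Tbx2*, did not pass (-0.29, adjusted p = 0.305). *Has2*, *Tgfb2*, *Wnt4* and *Rspo3* are also made in other parts of the heart, and each passed in 8 of 8 fits that left out a sample. The summed level of the list was 899 to 1096 CPM in the mutants and 1248 to 1298 CPM in WT. *Cdh2* and *Cacna2d2* gave the largest parts of this sum. *Cacna2d2* was at 248 CPM in the mutants and 345 CPM in WT. *Cdh2*, at 427 and 446 CPM, did not pass (-0.06, adjusted p = 0.43, edgeR). With mutant sample 1 left out, 8 genes of the list were lower and 1 higher, where 17.2% of all genes passed, and *Bmp2* was at -0.13 (adjusted p = 0.262, edgeR).

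*Tbx1*, the factor of the second heart field and pharynx that is deleted in DiGeorge syndrome, was near the limit of detection. It lies on the minus strand at chr16:18580979-18590671 (ENSMUSG00000009097). It had 4, 2, 9 and 4 counts in mutant samples 1 to 4 and 4, 2, 13 and 10 counts in WT samples 1 to 4. The groups overlapped, at 0.365 ± 0.208 CPM in the mutants and 0.548 ± 0.412 in WT, and counts this low did not enter the edgeR test. A two-sided exact permutation test of log2 CPM gave p = 0.686, and a fit without the filter gave a log2 fold change of -0.55 (adjusted p = 0.649, edgeR). No difference in *Tbx1* was detected, and counts this low give little power to find one. Pharyngeal endoderm genes, which would come with adjoining tissue, were low too, with 0 of 9 passing the filter and summed levels of 0.763 to 1.74 CPM in the mutants and 0.788 to 7.56 CPM in WT.

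Genes of the outflow tract and second heart field were better covered, with 15 of 16 tested. Of these, 4 fell, 0 rose and 11 did not pass, and the median log2 fold change was -0.22. *Fgf10*, a growth factor of second heart field progenitors, fell from 7.08 ± 0.786 to 3.37 ± 0.947 CPM (log2 fold change -1.07, adjusted p = 0.0148). *Sema3c*, a guidance cue of outflow septation, fell from 54.8 ± 1.68 to 40.4 ± 3.18 CPM (-0.44, adjusted p = 0.00414), and *Wnt11* fell by 0.44 (adjusted p = 0.0391, edgeR). The other gene was *Mef2c*, counted above. Of the genes that did not pass, *Hand2* (-0.27, adjusted p = 0.232) and *Crkl* (0.04, adjusted p = 0.738, edgeR) had the highest mean counts. The list summed to 412 to 496 CPM in the mutants and 540 to 598 CPM in WT. Leaving out mutant sample 1 gave 4 genes lower and 0 higher, where the share over all genes went from 8.62% to 17.2%.

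*Tbx18* was the gene of the set that rose. It lies on the minus strand at chr9:87702800-87731260 (ENSMUSG00000032419). *Tbx18* was at 62.0, 74.7, 50.4 and 54.0 CPM in mutant samples 1 to 4 and at 47.2, 42.8, 38.5 and 42.0 CPM in WT samples 1 to 4. Every mutant sample lay above every WT sample, and mutant sample 2 was the highest. The mean was 60.3 ± 10.8 CPM in the mutants and 42.6 ± 3.56 in WT, 41.4% higher (log2 fold change 0.50, SE 0.12, adjusted p = 0.0315, edgeR quasi-likelihood test). The two-sided exact permutation test gave p = 0.0286, the smallest possible. Without mutant sample 1 the log2 fold change was 0.49 (SE 0.124, adjusted p = 0.024 by edgeR). It was lowest without mutant sample 2, at 0.39 (SE 0.0915, adjusted p = 0.0326 by edgeR). Leaving out any 1 WT sample took the call away (adjusted p from 0.0588 to 0.0979, edgeR). Fewer genes passed in all in those fits, 509 to 700 against 1245 with every sample. The ratio of *Tbx18* to *Tbx20* per kilobase, which no library scaling affects, was 0.588, 0.587, 0.403 and 0.448 in mutant samples 1 to 4 and 0.323, 0.294, 0.254 and 0.278 in WT, again with no overlap.

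*Tbx18* marks both the epicardium and the sinus venosus, and lists for each were described. Of 15 epicardial and proepicardial genes tested, 14 had a positive log2 fold change, as did 49.7% of all genes tested, with a median of 0.41. Of the 15, 1 rose, 1 fell and 13 did not pass, where 8.62% of all genes passed. *Wt1*, the zinc finger factor that defines the epicardium, rose and passed in 8 of 8 fits that left out a sample (49.2, 56.3, 39.3 and 41.2 CPM in mutant samples 1 to 4, 32.1, 31.5, 32.1 and 29.9 CPM in WT samples 1 to 4, log2 fold change 0.57, adjusted p = 0.0126, edgeR). The gene that fell was *Mab21l2*, needed for proepicardium formation (-0.67, adjusted p = 0.0342). For *Upk3b*, a mesothelial plaque protein, the log2 fold change was 0.77 (adjusted p = 0.192), *Tcf21* 0.55 (adjusted p = 0.271) and the keratin gene *Krt19* 1.12 (adjusted p = 0.0872). Without mutant sample 1, *Wt1* (0.54), *Krt19* (0.56), *Tcf21* (0.76) and *Rspo1* (1.35) rose and *Mab21l2* fell by 0.53 on the log2 scale, in the fit where 17.2% of all genes passed. The summed level of the list was 502.5, 517, 334.5 and 371.6 CPM in mutant samples 1 to 4, above the 233 to 315 CPM of WT. *Krt19* carried this separation, with 289 CPM in mutant sample 1 alone. Without *Krt19*, an alternative added after the data were seen, the sums were 213.7, 395.4, 242.8 and 287.6 CPM in the mutants and 165.1 to 255.1 CPM in WT, and the groups overlapped. Within each sample, the ratio of *Tbx18* to *Wt1* per kilobase was 1.66, 1.74, 1.68 and 1.72 in the mutants and 1.93, 1.79, 1.58 and 1.85 in WT. This ratio overlapped between genotypes while both genes differed. It was examined after *Wt1* was seen to be the nearest profile to *Tbx18* in these samples, so the overlap is not a separate result.

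Genes of the sinus venosus and pacemaker, the other domain of *Tbx18*, gave 0 of 12 calls by edgeR's quasi-likelihood test, which is near the 8.62% over all genes, with 1 at an unadjusted p under 0.05 and 0 calls by DESeq2, by limma-voom and by edgeR without mutant sample 1. Without WT sample 2, 1 gene passed, the growth factor gene *Bmp4* (adjusted p = 0.0462, edgeR). Their median log2 fold change was -0.13, and their summed levels of 203 to 339 CPM in the mutants and 240 to 317 CPM in WT overlapped. *Shox2*, the sinus node factor, was at 8.99 ± 6.07 CPM in the mutants and 5.14 ± 2.71 in WT (log2 fold change 0.82, adjusted p = 0.426, and from 0.39 without mutant sample 2 to 1.149 without mutant sample 4), and the pacemaker channel gene *Hcn4* at 98.1 ± 14.5 and 107 ± 5.95 CPM (-0.12, adjusted p = 0.485, edgeR). Liver and septum transversum genes, from the tissue beside the proepicardium, were low, with 1 of 8 tested and summed levels of 1.81 to 12.97 CPM in the mutants and 1.01 to 2.47 CPM in WT. *Afp*, the main liver marker, had 63, 32, 2 and 0 counts in mutant samples 1 to 4 and 1, 4, 4 and 2 in WT, so mutant samples 1 and 2, the highest for *Tbx18*, were also the highest for *Afp*. *Hlx*, the 1 gene tested, rose (2.30, adjusted p = 0.0421, edgeR), but its log2 fold change was 1.51 without mutant sample 1 and it passed in 2 of 8 fits that left out a sample. The part of adjoining tissue in the rise of *Tbx18* was not tested.

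**Figure D3:**
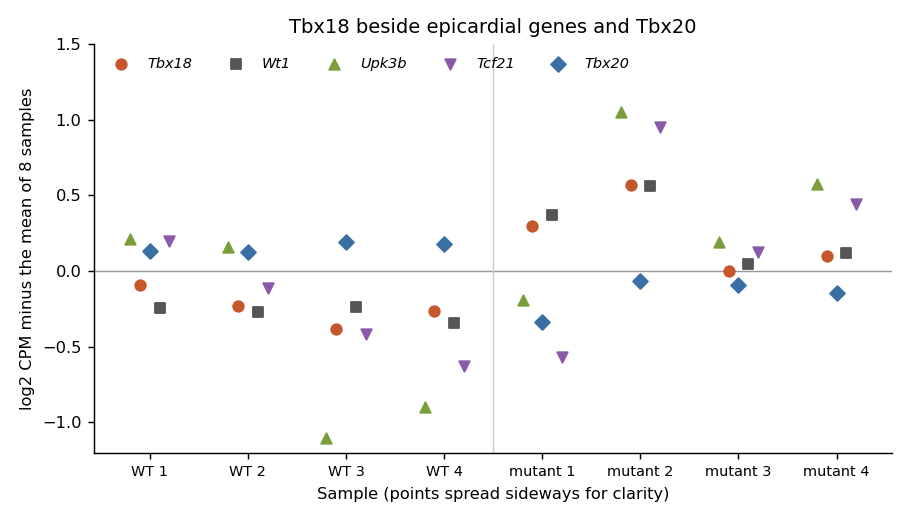
Log2 CPM of *Tbx18*, 3 epicardial genes (*Wt1*, *Upk3b*, *Tcf21*) and *Tbx20* in each of 8 samples, each gene centred on its mean over the samples. *Tbx18* and *Wt1* lay close together and higher in every mutant than in every WT sample, *Tbx20* lay the opposite way, and *Upk3b* and *Tcf21* overlapped between genotypes.

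**Figure D4:**
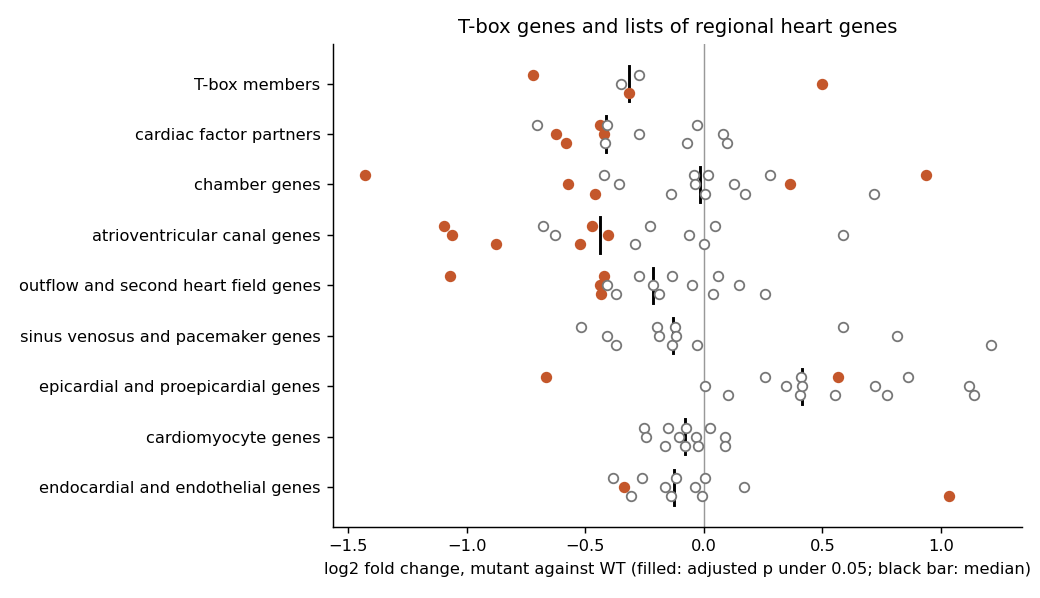
Log2 fold change (mutant against WT) of the tested T-box genes and of the genes of 8 lists of heart regions and cell types. Filled points passed edgeR's quasi-likelihood test at an adjusted p of 0.05 and black bars are medians. The list medians ran from -0.44 for the atrioventricular canal to 0.41 for the epicardium.

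To place each T-box gene among all genes, the root mean square distance between log2 CPM profiles, each centred over the 8 samples, was taken against 10193 genes (10194 for *Tbx1*). The nearest to *Tbx18* were *Wt1* at 0.0861 and *Myof* at 0.0907, where the median gene was at 0.327. The nearest to *Tbx20* were *Kcnj5*, a potassium channel gene of cardiomyocytes, at 0.0248 and *Ywhaz* at 0.0258 (median 0.213). For *Tbx5* they were *Inpp1* at 0.0567 and *Myh6*, the alpha myosin heavy chain gene, at 0.0613 (median 0.233). For *Tbx3* they were *Fam49a* at 0.131 and the partner gene *Gata5* at 0.135 (median 0.484), and for *Tbx2* they were *Tril* at 0.0609 and *Tigar* at 0.0872 (median 0.382). *Tbx1*, whose profile rests on few counts, had its nearest genes much farther off, *Rgs5* at 0.329 and *Tdgf1* at 0.347 (median 0.695). Profiles of a single comparison share its genotype difference and its libraries, so these distances are descriptions.

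The spread among mutant samples was wider than among WT samples for each of the 5 tested T-box genes. The coefficient of variation of CPM was 30.0% in the mutants and 8.08% in WT for *Tbx2*, 27.7 and 8.22% for *Tbx3*, 17.9 and 8.36% for *Tbx18*, 14.7 and 5.97% for *Tbx5*, and 8.23 and 2.22% for *Tbx20*. Without mutant sample 1, a comparison added after the data were seen, the mutant values were lower for *Tbx2* (14.3%), *Tbx3* (16.2%) and *Tbx20* (2.74%), nearly the same for *Tbx5* (14.4%) and higher for *Tbx18* (22.0%). The difference in spread was not tested. *Tbx20* and *Tbx18* kept their calls under 9 of 9 other tools, scalings and filters (adjusted p up to 0.0428 and 0.0388), and *Tbx3* under 8 of 9. *Tbx5* passed under none of the 9, and passed only when mutant sample 2 was left out (log2 fold change -0.35, adjusted p = 0.048, edgeR). *Tbx2* passed under none.

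**Figure D5:**
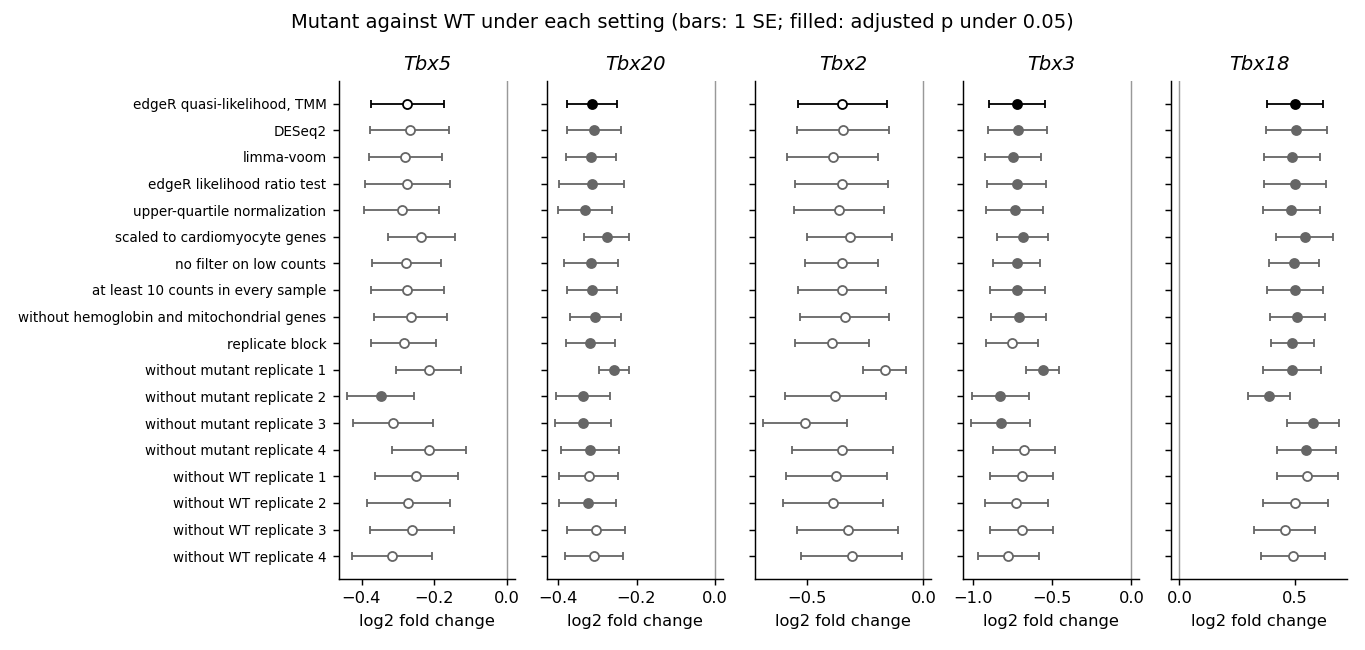
Log2 fold change of the 5 tested T-box genes (mutant against WT, bars 1 SE) under each tool, scaling, filter and left-out sample. Filled points have an adjusted p under 0.05. The direction stayed the same throughout for each gene, *Tbx20* and *Tbx18* were filled under all 9 tools, scalings and filters, and *Tbx2* was never filled.

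The rest of the T-box family was nearly silent in these ventricles. Of 11 other family genes, 10 had at most 9 counts in every sample, and *Tbx21*, a lymphocyte factor, had 0 in all. *Tbx4*, the limb factor that lies 44.47 kilobases from *Tbx2*, had 3 to 9 counts in the mutants and 3 to 5 in WT. *Mga*, a broadly expressed factor with both a T-box and a Myc-type domain, was the 1 tested, at 89.4 CPM in the mutants and 88.2 in WT (log2 fold change 0.02, adjusted p = 0.918, edgeR). The somite and limb bud list, where other T-box genes are used, summed to 12.03 to 14.1 CPM in the mutants and 12.6 to 16.5 CPM in WT, with *Myf5* and *Uncx* at 0 in every sample.

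Transcripts that overlap or adjoin the T-box genes were counted, because the use of strand in counting was not given in the sources used here. *D030062O11Rik* overlaps *Tbx18* by 1976 bases on the other strand and had 8 to 19 counts in the mutants and 3 to 24 in WT (log2 fold change 0.45, adjusted p = 0.633), against 655 to 1032 and 469 to 621 for *Tbx18*. *Tbx3os1* overlaps *Tbx3* by 697 bases and had 5 to 13 and 6 to 15 counts (-0.02, adjusted p = 0.985, edgeR). The non-coding *Gm43050*, 747 bases from *Tbx5*, had 12 to 32 counts in the mutants and 33 to 42 in WT, which did not overlap as counts, and did not pass (-0.70, adjusted p = 0.111, edgeR). *2610027K06Rik*, 327 bases from *Tbx2*, had 12 to 19 and 17 to 27 counts (-0.32, adjusted p = 0.46, edgeR).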

How the data were processed

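Libraries were made with the NEBNext Ultra kit from 200 ng of total RNA and sequenced as single reads of 60 bases. Per the labels and the submitters' processing notes, the authors trimmed reads with cutadapt and deposited expected counts for each gene, as estimated by RSEM 1.3.1 on GRCm38, with no scaling for depth or length. The name of the deposited table carries the number 91 after the build, taken here as the Ensembl release. Strand use and the aligner are not given in the sources used here. RSEM shares reads that fit several genes, so values need not be whole (16.0% of values were not).

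Expected counts were rounded and tested with edgeR 4.0.16 in R 4.3.3 (TMM normalization, filterByExpr by genotype, quasi-likelihood test, Benjamini-Hochberg adjustment over 14451 genes, threshold 0.05). Each standard error is the log2 difference over the square root of its F statistic. CPM are TMM-normalized, and log2 CPM used a prior count of 2. Exact permutation tests enumerated 70 relabellings. Gene positions and exon lengths come from GENCODE M21 (Ensembl 96, GRCm38) and symbols were given to 53274 of 53465 genes. Profiles were compared among genes with a mean log2 CPM of at least 3. The fit was tested on simulated data. Each result was recomputed with limma-voom (limma 3.58.1), DESeq2 1.42.0, the likelihood ratio test, 2 scalings, 2 filters, removal of hemoglobin and mitochondrial genes, a replicate block and leaving out each sample. The length of the longest protein-coding transcript and the ratios of *Tbx18* to *Wt1* and *Tbx2* were added after seeing the data.

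The genes, the lists of regional and cell type markers and the tests were chosen with earlier results of these data known. The list genes named are up to 4 per list that passed, by lowest p, and up to 2 others by highest mean count, with the 2 nearest profiles of each T-box gene. *Cited1*, *Cacna2d2*, *Id2*, *Tcf21*, *Rspo1*, *Srf*, *Bmp4* and *Shox2* were named after their values were seen. Replicates differed by more than sampling noise, so each counted once. Totals of 11852372 to 14360323 counts leave *Tbx1*, at 2 to 13 counts per sample, below the filter on low counts. The values of 1 gene of the chamber list are not reported here.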

Additional observations from a re-analysis of the deposited data

Results flagged for a closer look

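Of 58 sets of 4 samples examined for a sample far from the others, 2 stood out, where about 1 in 20 would by chance, and neither was a T-box gene. The summed log2 CPM of the cardiomyocyte genes was lowest in mutant sample 1, with a gap of 0.908 of the range of the mutants (37330 CPM against 39720 to 39970 in the other mutants). That of the somite and limb bud genes was lowest in WT sample 1, with a gap of 0.842 of the WT range (12.6 CPM against 15.8 to 16.5).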

How the results depend on the processing

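Both genotypes carry replicate numbers 1 to 4, but same-numbered samples did not deviate together (r from -0.0911 to 0.0187), so the numbers were not taken as pairs. The replicate block lowered the count of changed genes to 616 (398 higher, 218 lower) and left *Tbx3* at -0.76 (adjusted p = 0.0523, edgeR). Paired exact permutation tests gave the smallest p they allow, 0.125, for *Tbx3* (-0.77), *Tbx18* (0.49) and *Tbx20* (-0.32), so they can make no call. The other alternatives gave 1157 to 1780 changed genes, the most by DESeq2. Over the 9 tools, scalings and filters, block included, the list genes *Gata5* and *Cited2* passed in 7. *Fgf10*, *Cited1*, *Hopx*, *Id2*, *Wnt11*, *Mab21l2* and *Tek* passed in 8, and *Hlx* in 6 of the 8 that tested it.

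Leaving out each sample gave 509 to 2523 changed genes (335 to 1368 higher, 174 to 1155 lower), most without mutant sample 1 and fewest without WT sample 1. The log2 fold changes ran from -0.83 to -0.56 for *Tbx3*, -0.51 to -0.17 for *Tbx2* (lowest without mutant sample 3), -0.35 to -0.22 for *Tbx5*, 0.39 to 0.58 for *Tbx18* and -0.34 to -0.26 for *Tbx20*. Over the same fits 1 to 7 partner genes, 1 to 6 chamber genes, 4 to 9 canal genes, 2 to 4 outflow genes, 0 to 1 sinus venosus genes and 1 to 5 epicardial genes passed. Of the list genes named, *Mef2c*, *Irx3*, *Has2*, *Wnt4*, *Rspo3*, *Tgfb2*, *Sema3c*, *Wt1* and *Sox17* passed in 8 of 8, and the others that passed with all samples lost that call at least once. Differences near 0 changed sign: *Gata4* (-0.115 to 0.00818, positive without mutant sample 1), *Mga* (-0.0631 to 0.0673), and the log2 differences of the ratios of *Tbx5* to *Tbx20* (-0.017 to 0.0984) and *Tbx2* to *Tbx20* (-0.217 to 0.0823). The cause was not tested. Per kilobase of the longest protein-coding transcript, the WT levels were 41.6 for *Tbx20*, 22.7 for *Tbx5*, 12.2 for *Tbx2*, 9.11 for *Tbx18*, 7.44 for *Tbx3* and 0.218 for *Tbx1*, in the same order.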
